A study of Mus musculus with 6 samples.

Results

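The 8 genes examined here encode membrane and blood group proteins of the red blood cell: Slc4a1, Epb42, Sptb, Ank1, Rhd, Rhag, Kel and Xk. They were chosen by name, as every non-control probe whose transcript accession belongs to 1 of these RefSeq symbols, which gave 8 of the 20659 named genes and 9 of the 39429 probes on the array (Xk had 2 probes, every other gene 1). Their RNA was measured in liver from untreated male mice, 6 weeks old, in 3 samples labelled WT and 3 labelled Sec15 KO, on 1 one-colour array each. Sec15 belongs to the exocyst, a tether for vesicles on their way to the cell surface, and by its title the series concerns STAT3 traffic and the fate of blood stem cells. The labels name no promoter or Cre line for the knockout, and they do not say which Sec15 gene was removed or that each sample came from its own animal. The p-values therefore cover only the variation among these 6 samples, part of which may be technical.

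The red cell membrane is held in shape by a spectrin network beneath the lipid bilayer. Band 3 (Slc4a1), the anion exchanger, anchors that network through ankyrin (Ank1) and protein 4.2 (Epb42), and beta spectrin (Sptb) is the strand that ankyrin binds. The Rh antigen protein (Rhd) sits in the membrane with the Rh-associated glycoprotein (Rhag), and the Kell protein (Kel), a metallopeptidase of the surface, is joined by a disulfide bond to the multipass protein Xk. These genes are switched on in developing erythroid cells, which fill the fetal liver but are few in the liver of adult mice, whose blood cells are mostly made in the marrow and spleen. In a piece of whole liver, fewer cells of a type and less RNA per cell cannot be told apart.

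Both partners of the Rh pair and of the Kell pair were called, in opposite directions. Slc4a1 was 4.22-fold higher in Sec15 KO liver. Rhd and Kel rose from signals not well above background in WT to detection on all 3 KO arrays. Their estimated bounds were at least 4.89-fold and at least 2.36-fold higher, and another background correction gave smaller differences. Rhag, the partner of Rhd, was 1.97-fold lower in KO, and Xk, the partner of Kel, was 1.51-fold lower, both calls that most processing alternatives ended. Epb42 and Sptb did not pass the test, and Ank1 was too dim to be tested.

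Promoter sequences from RefSeq (build GRCm38.p6) were matched for 6 of the 8 genes, and none was found for Slc4a1 and Ank1. Those of Rhd, Kel and Rhag are shown, the 3 matched promoters that held both kinds of letters described next. Each line gives the 250 bases before the gene's start, 5′ to 3′ on the gene's strand. Capitals mark 3 sets of letters searched on both strands. The letters AGATAA and the letters TGATAA are of the kind bound by GATA factors, and the letters CACCC are of the kind bound by Klf factors.
Rhd, chr4:134864286-134864535, plus strand: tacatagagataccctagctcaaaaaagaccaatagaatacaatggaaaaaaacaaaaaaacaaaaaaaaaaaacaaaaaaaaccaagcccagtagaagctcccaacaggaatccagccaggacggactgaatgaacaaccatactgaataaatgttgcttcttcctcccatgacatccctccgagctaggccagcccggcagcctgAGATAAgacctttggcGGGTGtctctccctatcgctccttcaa
Kel, chr6:41704326-41704575, minus strand: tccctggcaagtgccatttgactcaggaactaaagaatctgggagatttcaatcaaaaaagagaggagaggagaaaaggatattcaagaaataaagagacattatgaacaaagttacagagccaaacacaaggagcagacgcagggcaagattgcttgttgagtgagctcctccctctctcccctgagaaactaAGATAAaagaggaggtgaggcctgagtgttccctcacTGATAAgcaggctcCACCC
Rhag, chr17:40810899-40811148, plus strand: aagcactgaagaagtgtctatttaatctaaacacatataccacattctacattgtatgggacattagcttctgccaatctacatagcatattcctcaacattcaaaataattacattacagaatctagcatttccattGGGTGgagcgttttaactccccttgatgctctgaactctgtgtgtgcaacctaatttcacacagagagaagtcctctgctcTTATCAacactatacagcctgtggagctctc
These are the only 3 of the 6 matched promoters with both kinds of letters, so that all shown hold both is no separate result. None of the marked matches overlap. In Rhd, AGATAA began 43 bases before the start and CACCC, on the opposite strand, 27 bases before it. In Kel, AGATAA began 56 bases before the start. The TGATAA of Kel began 19 bases before it, and its CACCC 5 bases before it. In Rhag, TGATAA on the opposite strand began 31 bases before the start and CACCC on the opposite strand 112 bases before it. Among 32851 listed promoters of the same length, 16.6% held at least 1 of the GATA sequences, 52% held CACCC, and 7.11% held both kinds. Of the other matched genes, Epb42 had 1 AGATAA and no CACCC, while Sptb and Xk each had 1 CACCC and neither GATA sequence. The E-box letters CANNTG occurred 4 times in Epb42, 2 times in Kel and 1 time in Sptb, were in none of the Rhd, Rhag and Xk windows, and occurred in 66.2% of all listed promoters. A match is a description of letters and not of binding.

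Across the 6 arrays, between 64.8% and 70.3% of probes were well above background and no spot was saturated, and the number of arrays limits the precision. The file headers give 1 scan time for the 3 WT arrays and KO replicate 2 (scan 1) and another for KO replicates 1 and 3 (scan 2). Scan and group are therefore partly mixed, and KO replicate 2 is the single KO array read with WT. WT replicates 1 and 2 were deposited under names with the same number, which may mark 1 animal. The Sec15 genes gave no clear check of the labels: the single Exoc6 probe was detected on 1 array, of WT, 1 Exoc6b probe was detected on none, and the other Exoc6b probe was 1.44-fold lower in KO (limma adjusted p = 0.0437). Whether these probes lie in the deleted part is not given in the sources used here. Of 27057 probes tested, 17% were higher and 11.6% lower in KO at an adjusted p under 0.05, and 28.6% were called in either direction. Of the hepatocyte markers, 11 of 11 with a probe were detected on each array.

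Levels are given as log2 signal relative to the 75th percentile of the same array, so 0 marks that percentile and negative values lie below it. Levels of different probes are not comparable, because each probe binds its target with its own strength. Adjusted p-values are from limma, over all probes tested.

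**Figure D1:**
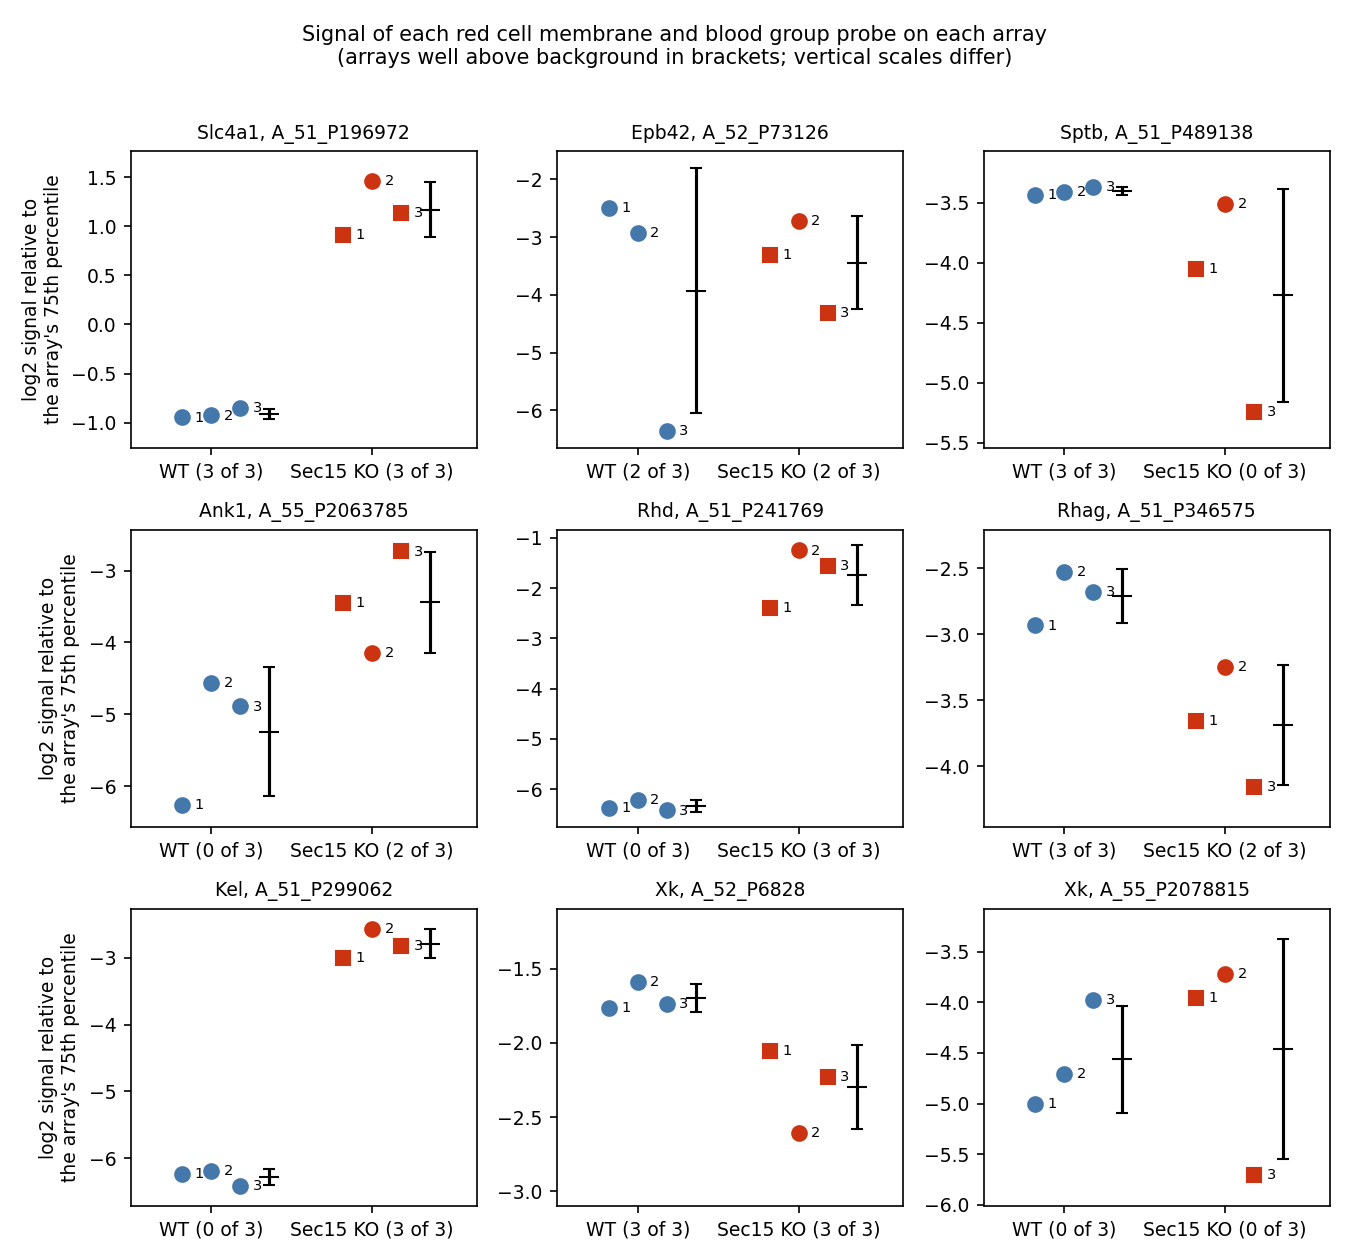
Log2 signal relative to the array's 75th percentile (vertical axis, scale differing between panels) for each of the 9 probes on the 3 WT (blue) and 3 Sec15 KO (red) arrays, with replicate numbers beside the points, circles for scan 1 and squares for scan 2. Black bars are the mean and SD, and brackets give how many arrays were well above background; the KO points of Slc4a1, Rhd and Kel lie apart from the WT points by at least 1.76.

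Slc4a1 encodes band 3, the anion exchanger that trades chloride for bicarbonate across the red cell membrane. Its probe (A_51_P196972, transcript NM_011403) was well above background on all 6 arrays. It read -0.95, -0.93 and -0.85 in WT replicates 1, 2 and 3, and 0.91, 1.46 and 1.13 in KO replicates 1, 2 and 3. All KO arrays were above all WT arrays, by a gap of 1.76, and the SD was 0.05 over the WT arrays and 0.28 over the KO arrays. The difference was 2.08 on the log2 scale (SE 0.16, 4.22-fold higher in KO, adjusted p = 0.00448). In processed brightness, the deposited signal of each spot, WT arrays read 143 to 163 and KO arrays 526 to 735. KO replicate 2 was the highest KO array and stood 2.37 above the WT mean; KO replicates 1 and 3, of scan 2, stood 1.93 above it on average. Among the 23082 probes well above background on every array, the Slc4a1 probe had the 26th largest rise.

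Rhd encodes the carrier of the mouse Rh antigen. Its probe (A_51_P241769, NM_011270) read -6.38, -6.21 and -6.42 in WT replicates 1, 2 and 3, none of them well above background. In KO replicates 1, 2 and 3 it read -2.40, -1.25 and -1.56, all well above background. The groups were separated by 3.81. In processed brightness this was 3.01 to 3.77 on the WT arrays, which is the small positive value the scanner software writes for spots near background, and 53.1 to 112 on the KO arrays. WT was not well above background, so the fold is given as a bound. The KO mean was set against the lowest signal that counted as well above background on each WT array (-4.10 to -3.90). This gave at least 4.89-fold. The limma adjusted p of 0.00307 is for the measured values, whose WT spread is that of near-background readings, and does not test the bound. The detection limit is not strict. Sptb on KO replicate 2 read -3.51 without being well above background, while the lowest signal that counted on that array was -3.66. The measured means were -6.33 (SD 0.11) in WT and -1.74 (SD 0.59) in KO, n = 3 each. With normexp background correction and quantile normalisation, which keeps dim probes above a common offset, the difference was 1.38 (adjusted p = 0.00307) in place of 4.60. That is less than the bound, 2.29 on the log2 scale, so the bound holds for the main background handling alone.

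Kel encodes the Kell blood group protein, an endopeptidase that can activate endothelin. The Kel probe (A_51_P299062, NM_032540) read -6.24, -6.20 and -6.41 in WT replicates 1, 2 and 3, again none well above background. It read -2.99, -2.56 and -2.82 in KO replicates 1, 2 and 3, all of them well above background. The groups were separated by 3.20, and the 3 KO values had an SD of 0.22. Processed brightness was 3.02 to 4.14 on WT arrays and 34.1 to 45.1 on KO arrays. Set against the WT detection limits in the same way, Kel was higher by at least 2.36-fold. The measured means were -6.28 and -2.79 (SD 0.11 and 0.22, limma adjusted p = 0.00144). That p also rests on near-background WT readings and does not test the bound. After normexp and quantile normalisation the difference was 0.77 (adjusted p = 0.00151) in place of 3.49, again less than the bound, 1.24 on the log2 scale. Of the probes tested, 0.288% shared this pattern of Rhd and Kel, detection on every KO array and none of the WT arrays.

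Rhag encodes the glycoprotein that carries Rh proteins to the membrane and conducts ammonia and carbon dioxide. Its probe (A_51_P346575, NM_011269) read -2.93, -2.53 and -2.68 in WT replicates 1, 2 and 3. It read -3.66, -3.25 and -4.16 in KO replicates 1, 2 and 3, the last not well above background. Every KO value lay below every WT value, with a gap of 0.31, the opposite order to that of Rhd on the same arrays. The difference was -0.98 (SE 0.25, 1.97-fold lower in KO, adjusted p = 0.0355). KO replicate 2 stood at -0.53 from the WT mean and KO replicates 1 and 3, of scan 2, at -1.20 on average. With scan as a block the difference was -0.53 (adjusted p = 0.212) and with normexp -0.22 (adjusted p = 0.111), and leaving out WT replicate 1, 2 or 3 or KO replicate 1 or 3 also ended the call (adjusted p between 0.0509 and 0.117).

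Xk encodes the multipass membrane protein that carries the Kx antigen and is missing in McLeod syndrome. Its brighter probe (A_52_P6828, NM_023500) was well above background on all 6 arrays. It read -1.77, -1.59 and -1.74 in WT replicates 1, 2 and 3 and -2.05, -2.61 and -2.23 in KO replicates 1, 2 and 3. The KO values lay below the WT values with a gap of 0.29, and KO replicate 2 was the lowest of the 6. The difference was -0.60 (SE 0.16, 1.51-fold lower in KO, adjusted p = 0.0412), and it was -0.91 with scan as a block (adjusted p = 0.0308). Leaving out WT replicate 1, 2 or 3 or KO replicate 1 or 3 ended the call (adjusted p between 0.0521 and 0.124), as did median centring (0.116), quantile normalisation (0.12), cyclic loess (0.08) and normexp (-0.19, adjusted p = 0.323). The other Xk probe (A_55_P2078815) was well above background on no array, with values from -5.01 to -3.98 in WT and from -5.71 to -3.72 in KO, and gives no level.

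Sptb encodes beta spectrin of the red cell and of striated muscle. The Sptb probe (A_51_P489138, NM_013675) read -3.43, -3.41 and -3.37 in WT replicates 1, 2 and 3, all well above background. It read -4.06, -3.51 and -5.25 in KO replicates 1, 2 and 3, none well above background. The KO values were all lower, but by a gap of 0.08, and KO replicate 2 stood only 0.10 under the WT mean. The bound was at least 1.35-fold lower in KO, 0.44 on the log2 scale. Over the alternatives the difference came as near to 0 as -0.10, so the bound does not hold in all of them. The probe did not pass the test (difference -0.86, SE 0.43, adjusted p = 0.164). It did pass without KO replicate 2 (difference -1.25, adjusted p = 0.0396) and with array weights (difference -1.67, adjusted p = 0.000771). Of the probes tested, 2.02% were well above background on all WT arrays and no KO array.

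Epb42 encodes protein 4.2, a relative of the transglutaminases that has no enzyme activity and steadies band 3 on the skeleton. Its probe (A_52_P73126, NM_013513) read -2.49, -2.93 and -6.36 in WT replicates 1, 2 and 3 and -3.31, -2.72 and -4.31 in KO replicates 1, 2 and 3. WT replicate 3 and KO replicate 3 were not well above background, and the groups overlapped. The difference was 0.48 with an SE of 1.07 (adjusted p = 0.745), so its direction could not be settled on these arrays. Without WT replicate 3 it was -0.73 (adjusted p = 0.33), and with array weights it was 1.96 and passed (adjusted p = 0.0458).

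Ank1 encodes ankyrin, the link between band 3 and spectrin, and a short form of it is made in striated muscle. Its probe (A_55_P2063785, NM_001110783) was well above background on KO replicates 1 and 3 alone, so it was left out of the test, which needed 3 arrays. It read -6.27, -4.56 and -4.89 in WT replicates 1, 2 and 3 and -3.45, -4.14 and -2.73 in KO replicates 1, 2 and 3. All KO values were above the WT values, by a gap of 0.42. KO replicate 2 was below the detection limits of both groups' arrays, so no fold is given. Without a filter on dim probes its difference was 1.80 (SE 0.56, adjusted p = 0.0845).

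**Figure D2:**
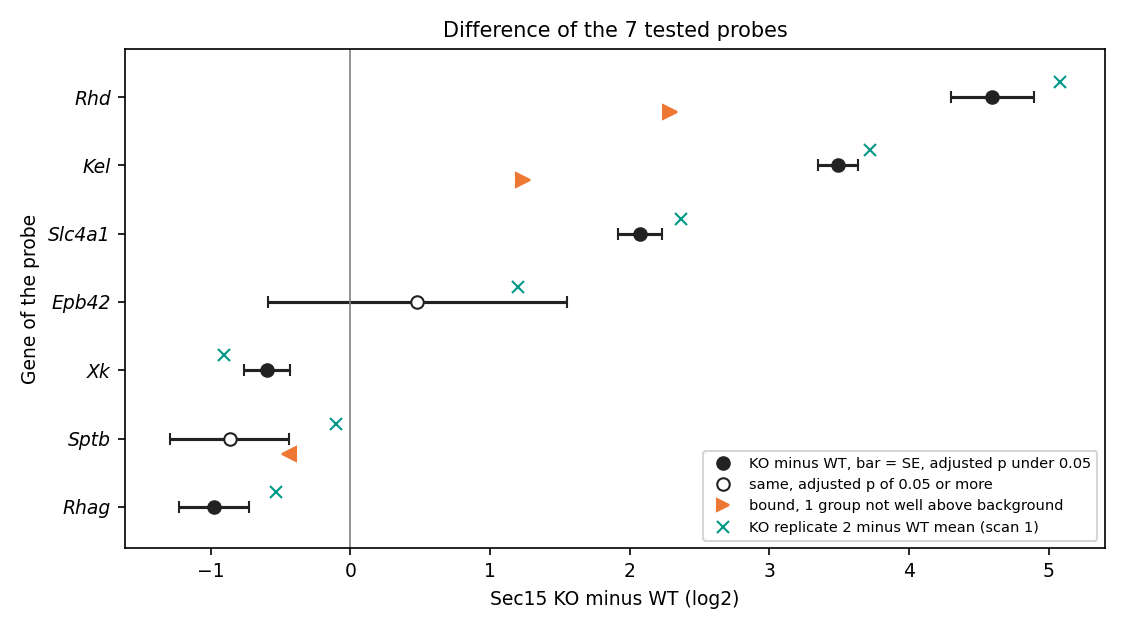
Sec15 KO minus WT on the log2 scale (horizontal axis) for the 7 tested probes, 1 row per gene, with SE bars, filled where the adjusted p was under 0.05. Triangles mark the bound where 1 group was not well above background, and crosses mark KO replicate 2, the KO array of scan 1, minus the WT mean; the cross lies on the same side of 0 as the difference in all 7 rows.

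Of the 9 probes, 7 passed the filter on dim probes. Of these, 3 were higher and 2 lower in KO, beside the 17% and 11.6% of all probes, and the filter admits a probe seen in 1 group alone, as it did for Rhd, Kel and Sptb. The 3 KO values lay above the WT values for 3 of the tested probes and below them for another 3, beside 30.6% and 19.6% of all probes tested (50.1% in either direction). With scan as a block, 3 member probes were higher and 1, Xk, lower, and 9.34% of all probes were called. The change between groups also followed brightness over the whole array. In decile 1 of 10 by brightness, which holds Rhd, Kel, Sptb and Epb42, the median difference was -0.26, with 4.99% of probes higher and 14.1% lower. In decile 7, which holds Slc4a1, the median was 0.14, with 21.2% higher. Rhag (decile 2) and Xk (decile 4) stood among probes with medians of -0.11 and -0.07. Rhd and Kel entered the test through their KO arrays alone, which fixed their direction, so the decile median is no measure of it.

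**Figure D3:**
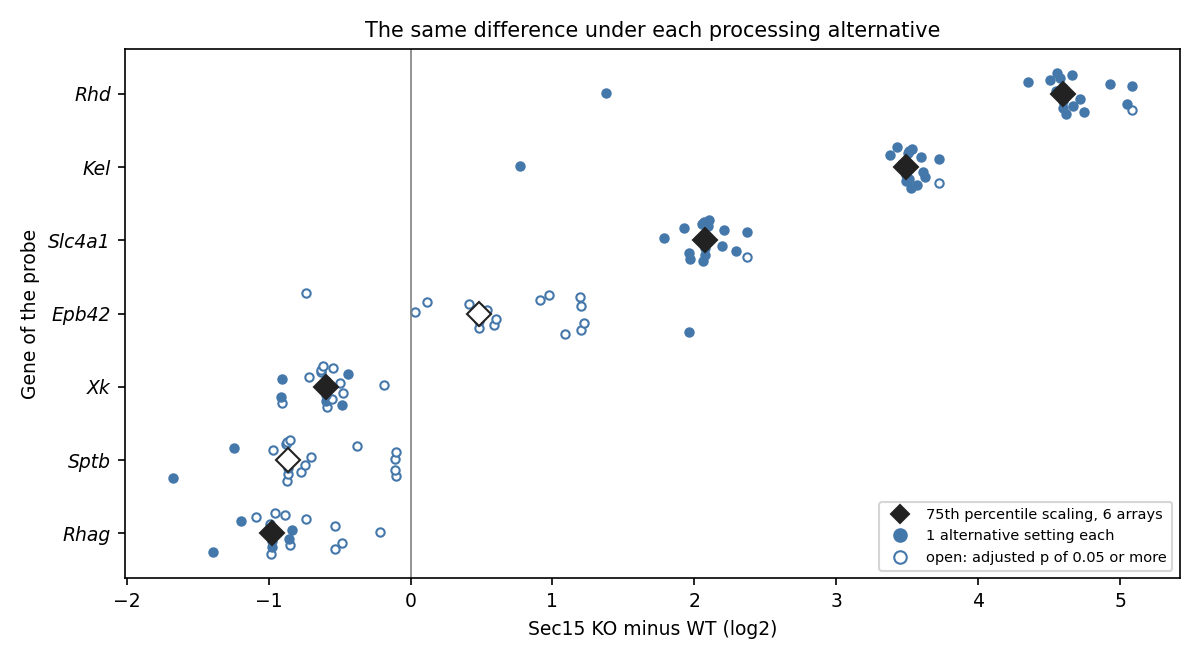
Sec15 KO minus WT on the log2 scale (horizontal axis) for each tested probe under each processing alternative (circles) and with the 75th percentile scaling of all 6 arrays (diamonds), filled where the adjusted p was under 0.05. Rhd, Kel and Slc4a1 stay above 0 in every setting, with 1 open point each, from the arrays of scan 1 alone, while Rhag and Xk stay below 0 with 12 and 13 open points. Rhd and Kel passed the filter through their KO arrays alone, which fixed their direction.

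The profiles nearest to the 2 probes that were well above background on every array were found by the root mean square difference over the 6 arrays, each profile centred on its own mean, among 17004 probes with a symbol. The nearest genes to Slc4a1 were E2f2 (0.12 on the log2 scale), a cell cycle transcription factor also active in red cell formation, Clca3a2 (0.12) and Rgs4 (0.15). Those genes were higher in KO by 1.98, 1.98 and 1.94. The nearest genes to Xk were Slc10a2, the bile salt transporter of the ileum, Mapk15 and H2-Ab1, a class II antigen-presenting gene, each at 0.06. Their differences were -0.64, -0.52 and -0.59. All these profiles share the 6 arrays and the scaling, and nearness on 6 arrays is a description.

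Partners of these proteins in the membrane and its skeleton were examined next. Of 14 measured genes of 18 listed, 6 were higher and 1 lower in KO, with a median difference of 0.25, beside 18.7% higher, 10.7% lower and a median of 0.11 over 15557 named genes. Cd47, the surface signal that protects cells from macrophages, rose 1.59-fold (SE 0.13 on the log2 scale, adjusted p = 0.0169). Epb41, protein 4.1, which ties spectrin to actin, rose 1.52-fold (SE 0.13, adjusted p = 0.0218). Tpm1, a tropomyosin of muscle and other cells, was 1.75-fold lower (adjusted p = 0.0301). Dmtn, Add2 and Tmod1 were not measured above the filter. The 6 calls became 3 without WT replicate 1, 2 without WT replicate 2, and 1 in each of the fits without WT replicate 3, without KO replicate 1, without KO replicate 3 and with scan as a block. With cyclic loess 3 were higher and the list's median was 0.04, beside 0.01 over all named genes, and with scan as a block the median was 0.17.

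Other carriers of blood group antigens and the enzymes that build them were mostly not called. Of 22 measured genes of 28 listed, 5 were higher and none lower in KO by limma's adjusted p, with a median of 0.06. Over all named genes, 18.7% were higher and 10.7% lower, with a median of 0.11. At an unadjusted p under 0.05, by limma, 1 gene, Fut1, was lower. In this list, 1 gene was called lower with cyclic loess, 1 with the filter on all 6 arrays and 5, beside 8 higher, with array weights. Ackr1, the Duffy chemokine receptor, rose 1.70-fold (SE 0.11 on the log2 scale, adjusted p = 0.00969), and Art4, the Dombrock protein, rose 1.49-fold (adjusted p = 0.0197). Cr1l, a complement regulator, was 1.35-fold higher (adjusted p = 0.0247), and Abcc4, a nucleotide transporter, 1.60-fold (adjusted p = 0.0274). Icam4, the Landsteiner-Wiener protein of the Rh complex, stood at a difference of 0.02 (adjusted p = 0.948), and Ermap, the Scianna protein, at -0.12 (adjusted p = 0.35). The 5 calls became 3 with quantile normalisation or cyclic loess, 1 with scan as a block, 1 without WT replicate 2, 0 without WT replicate 3 and 1 without KO replicate 1 or 3.

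Relatives of these genes that serve cells other than red cells were examined in the same way. Of 20 measured genes of 26 listed, 1 was higher and 5 lower in KO, with a median of -0.14. Over all named genes, 18.7% were higher and 10.7% lower, with a median of 0.11. The anion exchangers next to Slc4a1 moved against it: Slc4a2, found in most cells, was 1.58-fold lower (SE 0.10 on the log2 scale, adjusted p = 0.011), and Slc4a3 was 1.43-fold lower (adjusted p = 0.044). Slc4a4, a bicarbonate transporter, rose 1.53-fold (adjusted p = 0.0177). Tgm3, a transglutaminase related to Epb42, was 2.41-fold lower (adjusted p = 0.00716), and Tgm1 was 1.40-fold lower (adjusted p = 0.0425). Xkr6, a relative of Xk, was 2.81-fold lower (adjusted p = 0.0473). Rhbg, the Rh glycoprotein of liver and kidney, differed by -0.02 (adjusted p = 0.968), Sptbn1, the spectrin of most tissues, by 0.21 (adjusted p = 0.156) and Ank3 by 0.46 (adjusted p = 0.305). Ank2, another ankyrin, differed by 2.30 (SE 0.70, adjusted p = 0.0555) and was not called, although its KO values all lay above its WT values. The 5 lower calls became 3 without WT replicate 1, 2 without WT replicate 2, 0 without WT replicate 3, 2 without KO replicate 1, 1 without KO replicate 3, 1 with scan as a block, 3 with cyclic loess or the replicate block, 2 with quantile normalisation and 9 with array weights. With median centring of the arrays 2 were higher and 2 lower.

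**Figure D4:**
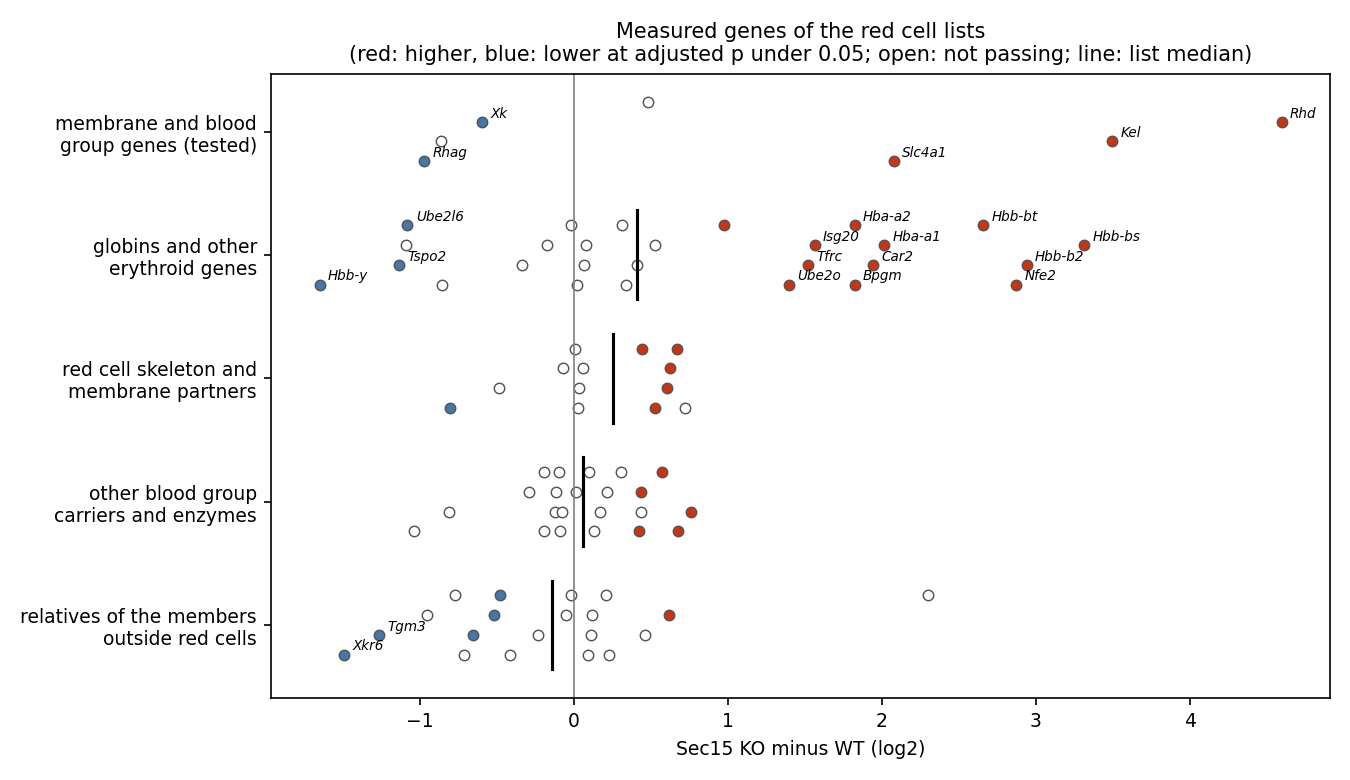
Sec15 KO minus WT on the log2 scale (horizontal axis) for the tested members and the measured genes of 4 gene lists (rows, 1 gene of the skeleton list not drawn), red or blue where higher or lower at an adjusted p under 0.05, with the median of each list as a line. Rhd, Kel and Nfe2 are drawn at their measured difference although WT was not well above background, and so is Sptb although KO was not. The members spread from -0.98 to 4.60 and the globin list from -1.65 to 3.31.

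The globins and other genes of the erythroid line ranged from lower to several-fold higher. Of 27 measured genes of 31 listed, 12 were higher and 3 lower, with a median of 0.41, beside 18.7%, 10.7% and 0.11 over all named genes. Hbb-b2, an adult beta globin, was 7.67-fold higher (SE 0.16 on the log2 scale) and Bpgm, the enzyme that makes 2,3-bisphosphoglycerate, 3.54-fold (SE 0.09). Tfrc, the transferrin receptor, and Isg20, a nuclease, were 2.87-fold and 2.96-fold higher. The 3 lower genes were Hbb-y (3.14-fold lower, adjusted p = 0.00691), Tspo2 (2.20-fold, adjusted p = 0.0295) and Ube2l6 (2.12-fold, adjusted p = 0.0187). Klf1, a regulator of band 3 and many other erythroid genes, stood at 0.34 (SE 0.13, adjusted p = 0.0968), and Alas2 at 0.02 (adjusted p = 0.954). Gata1 was not measured above the filter. The higher count was 12 or 13 with any 1 sample left out, and the lower count was 1 without WT replicate 2, 0 without WT replicate 3, 5 without KO replicate 2 and 1 without KO replicate 3. The summed signal of the 29 genes with a probe was 172 to 221 times the 75th percentile on the WT arrays and 503 to 620 times on the KO arrays. Hba-a2 alone gave 34.9% of the WT sum, and the rest was 118 to 134 in WT and 287 to 368 in KO. Bright probes weigh most in such a sum, and 12 of the 27 measured genes were not called. The sum moved with the rises of Slc4a1, Rhd and Kel and against the falls of Rhag and Xk. Its part in those differences was not tested.

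Sums of markers of other cells that a piece of liver can hold, on the same scale, were compared next. The summed signal of 12 Kupffer cell markers, the macrophages that take up old red cells, was 26.1 to 26.8 on WT arrays and 37.6 to 48.1 on KO arrays, and 5 of 11 measured were higher. That of 11 platelet and megakaryocyte markers was 3.70 to 4.50 in WT and 6.82 to 7.14 in KO (3 of 9 higher, 2 lower), and that of 11 neutrophil markers 7.92 to 8.42 and 9.60 to 16.5 (4 of 9 higher). Elane, a granule protease that was not called, gave 65.4% of the WT neutrophil sum, and the rest was 2.52 to 3.10 in WT and 4.71 to 12.7 in KO. That of 11 lymphocyte markers was 41.2 to 42.2 in WT and 23.7 to 28.1 in KO, with 4 of 9 lower. Cd4 alone, 1.66-fold lower, gave 81.1% of the WT sum, and the rest was 7.80 to 7.94 in WT and 5.98 to 6.04 in KO. Skeletal muscle also expresses Sptb, Xk and Ank1, and the summed signal of 12 muscle markers was 6.75 to 12.2 in WT and 2.54 to 4.44 in KO. That sum was mostly 1 gene, the myosin Myh2, which was 7.96-fold lower (adjusted p = 0.0101). The other muscle markers summed to 2.30 to 3.32 in WT and 1.96 to 2.96 in KO, which overlap. Of the muscle markers, 2 of 7 measured were lower, Myh2 and Tnnt3, and the defining genes Acta1, Myh1 and Mb were well above background on no array. Proliferation markers, which mark dividing cells of any type, summed to 8.18 to 9.04 in WT and 8.71 to 10.3 in KO, which overlap, with 5 of 10 higher and 1 lower. Single genes differed more than the sum: Rrm2 was 5.57-fold, Mki67 4.16-fold and Birc5 3.11-fold higher, and the lower gene, Ccnb1, was 4.44-fold lower. Sinusoidal endothelial markers summed to 26.2 to 27.2 in WT and 32.7 to 42.3 in KO, with 4 of 9 higher. The 11 hepatocyte markers summed to 3389 to 3840 and 3844 to 4601, which almost touch, with 4 higher. Without Alb, the brightest, they summed to 2671 to 3021 in WT and 3015 to 3636 in KO, which overlap. The median of the hepatocyte list was 0.20, and -0.10 with cyclic loess. The counts of all these lists stand beside 18.7% higher and 10.7% lower over all named genes. The marker counts rested on few arrays: without WT replicate 3, at most 1 gene of each of these 8 lists was called higher and 0 lower, and without KO replicate 3 at most 2 were higher and 1 lower. The part of these cell types in the differences of the membrane genes was not tested.

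**Figure D5:**
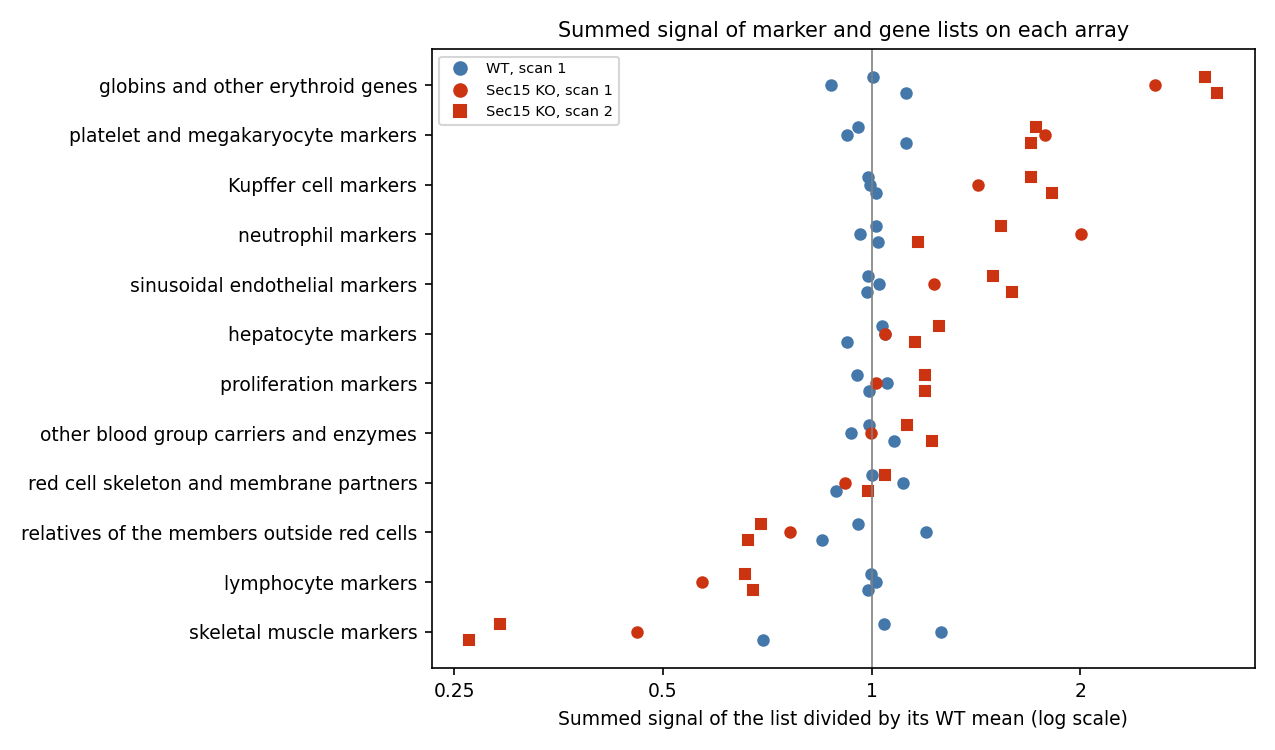
Summed signal of each list divided by its WT mean (horizontal axis, log scale) on each array, blue for WT and red for Sec15 KO, circles for scan 1 and squares for scan 2. The globin list lies farthest to the right in KO and the muscle list, mostly Myh2, farthest to the left, and KO replicate 2 lies on the side of the other KO arrays for both.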

How the data were processed

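Liver RNA of 3 WT and 3 Sec15 KO samples was measured on 6 one-colour (Cy3) Agilent arrays. Per the file headers, the deposited values are spot intensity from Agilent Feature Extraction 11.0.1.1, background-subtracted within each array and not normalised between arrays; the deposited files hold other flags per spot. Spots flagged as outliers were left out, spots of 1 probe averaged, and log2 signal minus the array's 75th percentile used. A probe counted as well above background by the scanner software's flag, and 27057 probes flagged on at least 3 of 6 arrays were tested with limma 3.58.1 (lmFit, eBayes) in R 4.3.3, Benjamini-Hochberg adjusted over all of them at 0.05. Accessions were matched to RefSeq symbols (assembly GRCm38.p6): 27234 probes had 1 symbol and 12195 none. The headers name build mm9 for the array, so coordinates are printed only for the RefSeq promoters, in GRCm38.p6. Lists used each symbol's brightest tested probe. Named are all member probes, some of the up to 4 list genes with the smallest p, the 3 nearest profiles, and others chosen after their values were seen. Those others are Elane, Slc4a3, Xkr6, Icam4, Ermap, Fut1, Rhbg, Sptbn1, Ank2, Ank3, Klf1, Alas2, Hbb-y, Tspo2, Ube2l6, Hba-a2 and Alb. Some list genes count in the totals and are not reported here by name. Members and lists were chosen with earlier results of these data known. The method was tested on simulated data. The alternatives covered scaling, background correction, filter, eBayes options, array weights, probe choice, replicate block, scan, and left-out samples.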

Additional observations from a re-analysis of the deposited data

How the results depend on the processing

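Slc4a1 kept direction and call in all alternatives with more than 1 KO array. So did Rhd and Kel where tested, but they passed the filter through their KO arrays alone, which fixed their direction. With WT near background, their kept calls are no separate support. The arrays of scan 1 alone hold 1 KO array, replicate 2, whose spread is taken to be that of WT. There Slc4a1, Rhd and Kel stood 2.37, 5.08 and 3.72 above the WT mean. Requiring all 6 arrays left 2 member probes to test, Slc4a1, called higher, and Xk, called lower, so Rhd and Kel were not tested in that setting. The count of 2 lower member probes was 1 with median centring, quantile normalisation, scan as a block, and cyclic loess with scan as a block (added after seeing the data). It was 0 with cyclic loess, normexp, no filter (2, 1 and 2 lower at an unadjusted p under 0.05, by limma) and WT replicates 1 and 2 averaged (2), and between 0 and 3 with 1 sample left out. Epb42 ran from -0.73 (without WT replicate 3) to 1.20 with 1 sample left out. Array weights gave 4 higher member probes, Epb42 added, and 3 lower, Sptb added. The replicate block left 3 higher member probes and 1 lower, Rhag (Xk had an adjusted p of 0.0845). Same-numbered samples correlated in their deviations by 0.10, 0.11 and 0.02, so the numbers were not taken as pairs.

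Over all probes, 4597 were higher and 3148 lower (59.4% higher). Higher calls numbered 2946 with cyclic loess, 2930 with no filter, 11997 with array weights, 1313 with scan as a block, 0 on scan 1 alone and 1033 with cyclic loess and scan as a block. Lower calls numbered 9159 with array weights, 1213 with scan as a block, 0 on scan 1 alone and 1183 with cyclic loess and scan as a block. With 1 sample left out they ran from 199 to 6820 higher and from 146 to 5794 lower, both lowest without WT replicate 3. Median centring gave 70.1% higher and cyclic loess 47.8%. The median of all probes was 0.08, and 0.19 with median centring. The cause of these changes was not tested. Rhd, Kel and Sptb rest on signals near background in 1 group, which limits them to bounds that are not strict.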
